A study of Mus musculus with 14 samples.

Results

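The miR-21 family was followed through small RNA libraries of mouse macrophages and of the exosomes they release. Its 4 members, mmu-miR-21a-5p, mmu-miR-21a-3p, mmu-miR-21b and mmu-miR-21c, were taken by name from the 1250 lines of a table in which each line holds the raw counts of 1 mature microRNA (miRNA). Of the 4 members, 3 passed the filter on low counts in lysates and 1 in exosomes, and miR-21b was too rare to pass it in any comparison. The study held 14 libraries, with bone marrow as their source and excised bone as their tissue. Exosomes, small vesicles purified from culture supernatant on an OptiPrep density gradient, gave 4 control and 4 stimulated libraries, and cell lysates gave 3 of each. By their titles the stimulated macrophages had IL4, the cytokine of alternative activation, and the controls are titled WT, which the treatment label gives as wild type. The labels name no altered allele in any group, and they give no strain, age, dose or length of stimulation. Each title carries a date that pairs an IL4 with a control library, and replicates are numbered by it. Exosomes and lysates have no date in common, so the date and the compartment cannot be told apart.

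A miRNA is cut from a hairpin precursor, and either arm of the hairpin can be loaded into an Argonaute protein, which the small RNA then guides to messenger RNAs that pair with its seed. In miR-21a the 5p arm is the guide strand and the 3p arm the passenger strand, which is mostly degraded. Transcription of the precursor is driven by AP-1, STAT3 and NF-kB in many activated cells, and the guide strand represses Pdcd4 among other targets, which in macrophages tempers the inflammatory response and favours IL-10.

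The mature sequences are shown because they set which reads the lines can share. They are written 5′ to 3′ from RefSeq annotation of GRCm38.p6, with the seed, bases 2 to 8, in capitals:
miR-21a-5p: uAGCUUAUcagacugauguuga
miR-21c: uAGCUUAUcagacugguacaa
miR-21b: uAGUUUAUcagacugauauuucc
miR-21a-3p: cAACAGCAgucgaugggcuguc
Counted from the 5′ end, miR-21c equals miR-21a-5p over its first 15 bases, seed included, and then differs by A16G, G18A, U19C, U20A and G21A. The substitutions in miR-21b are C4U, which lies in the seed, G18A, G21U and A22C, and its longest run in common with miR-21a-5p is 13 bases at positions 5 to 17. A read of miR-21a-5p that ends within those first 15 bases matches miR-21c as well. How the authors' counting treated such reads is not given in the sources used here, so the miR-21c and miR-21b levels are uncertain next to the far deeper line of miR-21a-5p. Among 1679 mature mouse miRNAs in the table of sequences, to which 1051 of the 1250 lines matched by name, none outside the family has the seed of any of the 4.

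In GRCm38 the guide strand lies at chr11:86584120-86584141 and the passenger strand at chr11:86584082-86584103, both on the minus strand. Their hairpin, Mir21a, falls within exon 12 of an annotated Vmp1 transcript on the same strand, in the untranslated part. Mature miR-21b lies at chr3:29636768-29636790 on the plus strand, in an intron of Egfem1 on the same strand. Mature miR-21c lies at chr8:128278188-128278208 on the minus strand, where its hairpin overlaps no other gene and the nearest coding gene, Nrp1, is 80379 bases away.

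Library totals ran from 28417 to 411671 counts in exosomes and from 3941480 to 6792079 in lysates, so 1 count was worth far more in exosomes. The 4 haematopoietic marker miRNAs, among them miR-223-3p and miR-142a-3p, held 1.62% to 3.76% of exosome counts and 1.21% to 3.21% of lysate counts. The 4 erythroid markers held 2.18% to 5.53% in exosomes but at most 0.0211% in lysates. Endothelial markers held 0.410% to 2.75% against at most 0.00339%, and the liver marker 0.0902% to 1.20% against at most 0.0281%. Lymphocyte, muscle and epithelial markers were also higher in every exosome library than in any lysate, while stromal markers overlapped. Exosome libraries of 25 January stood apart, with miR-203 lines at 19.4% of the IL4 and 9.28% of the control library. Fold changes and shares that use exosomes are therefore also given without these libraries. This does not take miR-203 out: its lines held 0.0326% to 3.53% of the other exosome libraries and at most 0.00264% of lysates. Whether replicates are separate animals or cultures is not in the labels, so the spread that p-values measure may be technical.

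The guide strand dominated every library. miR-21a-5p ranked first in 14 of 14 libraries, at 1.64 to 5.61 times the counts of the line in second place, which was let-7f-5p in 12 libraries. Over all libraries it gave 11148036 counts, 99.96% of those in the family, while miR-21a-3p gave 2843, miR-21c 1884 and miR-21b 31. In bulk libraries, fewer cells of a type and less RNA per cell cannot be told apart.

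As a percentage of all miRNA counts in a library, miR-21a-5p reached 19.2, 21.8, 25.1 and 18.9 in control exosomes, replicates 1 to 4 (mean 21.3 ± 2.89, SD, n = 4). In IL4 exosomes the 4 values were 20.2, 29.6, 29.8 and 19.5 (24.8 ± 5.70, n = 4). Replicates 2 and 3 were the high ones in both groups, and the groups overlapped. In control lysates the share was 25.3, 31.6 and 29.4 (28.7 ± 3.21, n = 3), and in IL4 lysates 32.4, 39.4 and 43.5 (38.5 ± 5.59, n = 3). Every IL4 lysate lay above every control lysate, by a margin of under 1 percentage point, as did 8.8% of the 443 lysate lines tested. Counting error was small against this spread: the widest 95% Clopper-Pearson interval reached 0.460 percentage points to a side. Such intervals cover counting error only, since PCR reads are not independent molecules.

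**Figure D1:**
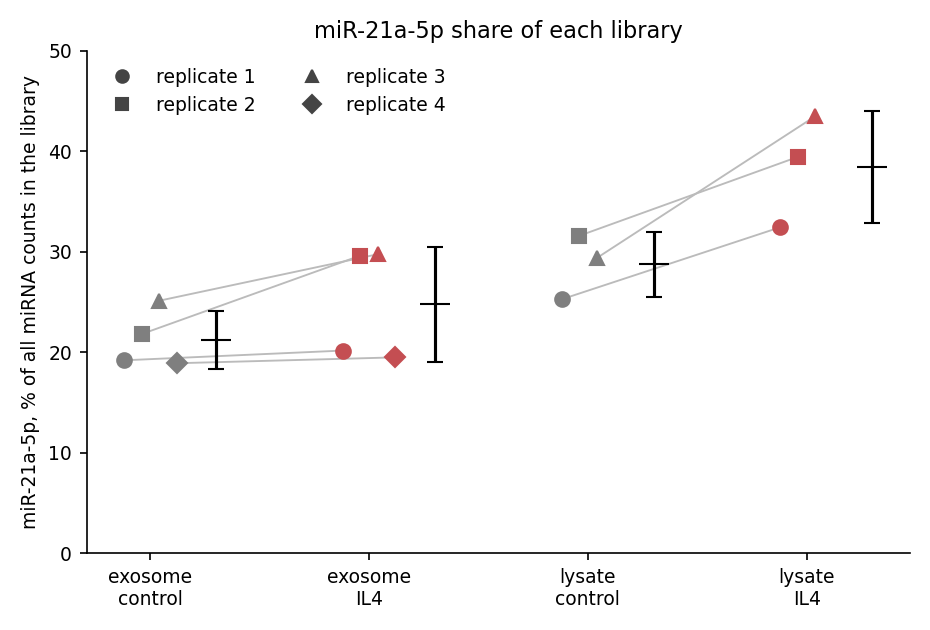
Share of miRNA counts held by miR-21a-5p (vertical axis, percent) in each library of the 4 groups; symbols mark the replicate, grey lines join libraries whose titles carry the same date, and black bars give the mean and SD. The share is higher with IL4 along every line, and lysates with IL4 (32.4% to 43.5%) lie above all other groups.

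Ordered by mean, the groups ran from control exosomes through IL4 exosomes and control lysates to IL4 lysates. Control and IL4 exosomes, neighbours in this order, did not differ beyond their spread (difference 3.50 percentage points, exact permutation p = 0.286, two-sided), and by 4.34 points without the 25 January libraries. IL4 exosomes and control lysates overlapped, and they differ in both compartment and stimulation. Between IL4 and control lysates the difference was 9.72 points, with an exact permutation p of 0.1, the smallest that 3 against 3 libraries allow. Adjusted over the 4 group comparisons of the share, these p-values were 0.286 and 0.133 (exact permutation, Benjamini-Hochberg).

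Within dates the share was higher with IL4 in 3 of 3 lysate pairs, by 7.18 to 14.1 points, and in 4 of 4 exosome pairs, by 0.585 to 7.81 points. Exact permutation of signs within dates gave p = 0.25 and p = 0.125, the smallest each number of pairs allows. The lysate pairs gave IL4 to control ratios of 1.28, 1.25 and 1.48. The exosome pairs gave 1.05, 1.36, 1.18 and 1.03, so the higher ratios came from the pairs of 16 March and 5 April. Depth moved with these values: total counts were higher with IL4 at 4 of 4 exosome dates, and the deepest exosome library of each group, replicate 3, held its highest share. The part of depth in the result was not tested.

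Fold changes were estimated with edgeR's quasi-likelihood test over all lines that passed its filter on low counts, as log2 values scaled by TMM factors, which correct for composition. In lysates 443 lines were tested. IL4 changed miR-21a-5p by 0.63 (SE 0.23, 95% CI 0.10 to 1.15), or 1.54-fold, which did not pass at an adjusted p of 0.220 in edgeR. With the date as a replicate block the estimate was 0.61 (SE 0.12) and passed at an adjusted p of 0.0109. Among the 443 lines 7.22% were called without the block and 11.3% with it. The estimate ranked 63rd from the top, while the median line was at 0.00. Leaving out 1 library moved the estimate between 0.39 and 0.81, and it was not called in any of the 6 fits. With library totals in place of TMM factors the median line moved to -0.19 and miR-21a-5p to 0.42, which left it 0.61 above the median against 0.63 with TMM factors. Of the calls 81.2% were higher with TMM factors and 57.1% with library totals.

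In exosomes 182 lines passed the filter and 0.549% of them, a single line, was called. The IL4 change of miR-21a-5p was 0.37 there (SE 0.19, 95% CI -0.06 to 0.80, edgeR adjusted p = 0.804). Without the 25 January libraries it was 0.46 (SE 0.23, edgeR adjusted p = 0.775). With the miR-203 lines left out it was 0.47 (SE 0.15, edgeR adjusted p = 0.241), also not called. The estimate ranked 36th of 182, beside a median of -0.09. Library totals moved the median to -0.25 and miR-21a-5p to 0.22. Taken as a difference between compartments, the IL4 effect in exosomes minus that in lysates was -0.12 (SE 0.35, 95% CI -0.88 to 0.63, edgeR adjusted p = 0.9999), and -0.10 without the 25 January libraries, with the same sign in 16 of 23 alternatives. In that test 0.0% of 338 lines were called by edgeR, 14 had an unadjusted p under 0.05, and DESeq2 called 0.

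After miR-21a-5p the most abundant line by mean share was let-7f-5p, a let-7 family miRNA that represses growth genes. It held 14.4% ± 0.901 of control lysate counts and 10.8% ± 1.86 with IL4 (n = 3 each). Its log2 change was -0.23 (SE 0.14, edgeR adjusted p = 0.567), on the other side of 0 from miR-21a-5p. Next in abundance, let-7a-5p had a log2 change with IL4 in lysates of -0.16, while miR-30d-5p was at -0.13 and miR-26a-5p at 0.04, and none was called.

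Exosomes held less miR-21a-5p than lysates relative to other miRNAs. The share of counts was lower in every control exosome library than in any control lysate, and likewise with IL4. In controls the margin was narrow, with 25.1% in exosome replicate 3 and 25.3% in lysate replicate 1. Mean differences were -7.48 percentage points in controls and -13.7 with IL4. Each difference gave an exact permutation p of 0.0571, the smallest that 4 against 3 libraries allow, and 0.114 after adjustment over the 4 comparisons. Scaled to a library total of 1000000 (CPM), groups failed to overlap in this direction for 10.4% of the 338 lines in controls and for 7.69% with IL4. Without the 25 January libraries the differences were -6.80 and -12.2 points.

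On the TMM scale miR-21a-5p fell by 1.26 in control exosomes against lysates (SE 0.25, edgeR adjusted p = 0.000735) and by 1.38 with IL4 (SE 0.25, edgeR adjusted p = 0.000551), equal to levels 2.39-fold and 2.60-fold lower. Leaving out the 25 January libraries gave -1.26 and -1.36. Calls were common in these tests: 50.9% of 338 lines in controls and 49.4% with IL4, of which 21.6% and 19.2% of lines were lower. let-7f-5p (-1.79 and -1.06) and miR-30d-5p (-1.23 and -0.93) were also called lower in both tests.

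The size of this fall depends on the scaling. Scaling to library totals alone moved the median of all lines from -0.18 to 0.63 in controls and from -0.01 to 0.68 with IL4. Of the calls in controls, 57.6% were higher with TMM factors and 88.7% with library totals, and with IL4 61.1% and 91.4%. miR-21a-5p was then at -0.43 in controls (edgeR adjusted p = 0.0863), no longer called, and at -0.63 with IL4 (edgeR adjusted p = 0.0140). Measured from the median line it hardly moved, at -1.08 with TMM factors and -1.06 with library totals in controls, and at -1.37 and -1.32 with IL4. Erythroid markers, at or above 2.18% of exosome counts and near 0 in lysates, differ between compartments as well. So do endothelial, lymphocyte, liver, muscle and epithelial markers, and the part of all these miRNAs in the result was not tested.

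**Figure D2:**
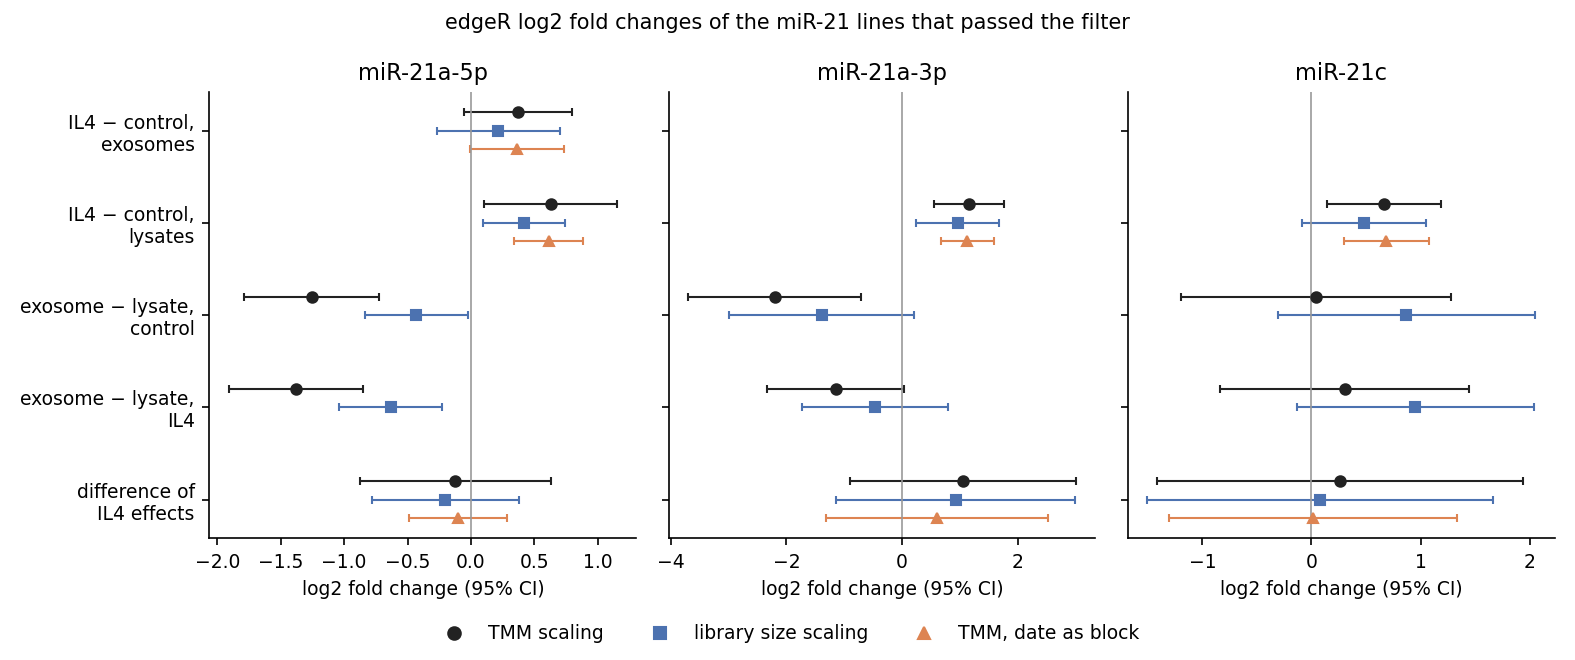
Log2 fold changes with 95% confidence intervals from edgeR (horizontal axis) for the miR-21 lines that passed the filter in each of 5 comparisons (vertical axis; miR-21a-5p alone for IL4 in exosomes, 3 lines in the others), with TMM scaling, library size scaling or the date as a block. Points for miR-21a-5p and miR-21a-3p lie left of 0 in exosomes against lysates and right of 0 for IL4 in lysates, and library size scaling moves the compartment differences to the right by about the shift of the median line.

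miR-21a-3p, the passenger strand, was the only family member called for IL4 in lysates, 1 of 3 lines tested, where 5.87% of all lines rose. Control lysates held 411, 361 and 273 counts, or 71.5, 53.2 and 49.5 CPM (mean 58.0 ± 11.8, SD, n = 3). IL4 lysates held 889, 304 and 560 counts, or 152, 77.1 and 109 CPM (113 ± 37.5, n = 3). Every IL4 value lay above every control value, as it did for 8.8% of the 443 lines, and the within-date ratios were 2.13, 1.45 and 2.20. The log2 change was 1.16 (SE 0.26, 95% CI 0.55 to 1.76, edgeR adjusted p = 0.0354), a 2.23-fold rise that ranked 27th of 443.

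This call rests on few libraries. Leaving out any of the 6 lysate libraries gave changes of 1.001 to 1.34 with adjusted p-values from 0.0505 to 0.200 in edgeR, so the call was lost each time. It was also lost with library totals in place of TMM factors (0.96, adjusted p = 0.178) and in 1 fit of all 14 libraries (1.07, adjusted p = 0.659). It held in the other 7 alternatives, among them the date as a replicate block (1.12, edgeR adjusted p = 0.00758), DESeq2 (1.13, adjusted p = 0.000481), no filter (1.13, edgeR adjusted p = 0.00450) and RLE factors (1.12, edgeR adjusted p = 0.0366). The estimate was above 0 in 15 of 15 alternatives.

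In exosomes the passenger strand gave 1, 0, 7 and 0 counts in controls and 2, 12, 15 and 8 with IL4. The corresponding levels were 35.2, 0, 35.2 and 0 CPM (17.6 ± 20.3, n = 4) against 40.0, 161, 36.4 and 104.3 CPM (85.4 ± 59.1, n = 4). All IL4 values were above all control values, but replicates 1 and 3 of the IL4 group exceeded the highest control by under 5 CPM. That control value, in replicate 1, is a single count. Groups were apart in this way for 2.75% of the 182 exosome lines tested, to which miR-21a-3p does not belong. A count of 0 in the control libraries allows up to 55.2 CPM in replicate 2 and 82.0 in replicate 4, taking 3 counts as the limit. The line did not pass the filter in the exosome fit. Where it could be fitted, the change was 2.25 without a filter (SE 1.17, edgeR adjusted p = 0.528) and 2.12 over all 14 libraries (SE 0.73, edgeR adjusted p = 0.278), neither called.

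Between compartments, miR-21a-3p was lower by 2.20 in control exosomes than in lysates (SE 0.70, edgeR adjusted p = 0.0157), with 8 counts where the control lysate level would give 18.4. The line did not pass the filter among exosome libraries alone. It entered these tests only in the fit joined with the deeper lysates, so the call rests on few exosome counts. Library totals gave -1.39 (adjusted p = 0.155), no call. With IL4 the difference was -1.15 (SE 0.56, edgeR adjusted p = 0.0992), with 37 counts against 71.98 at the lysate level. Control exosome replicate 3 held 7 of the 8 counts, and without it the difference in controls was -3.26 (edgeR adjusted p = 0.0261). Without the 25 January libraries these differences were -2.28, called (edgeR adjusted p = 0.0238), and -1.13, not called. The IL4 effects of the compartments differed by 1.054 (SE 0.91, 95% CI -0.90 to 3.01, edgeR adjusted p = 0.9999), and by 1.15 without those libraries.

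**Figure D3:**
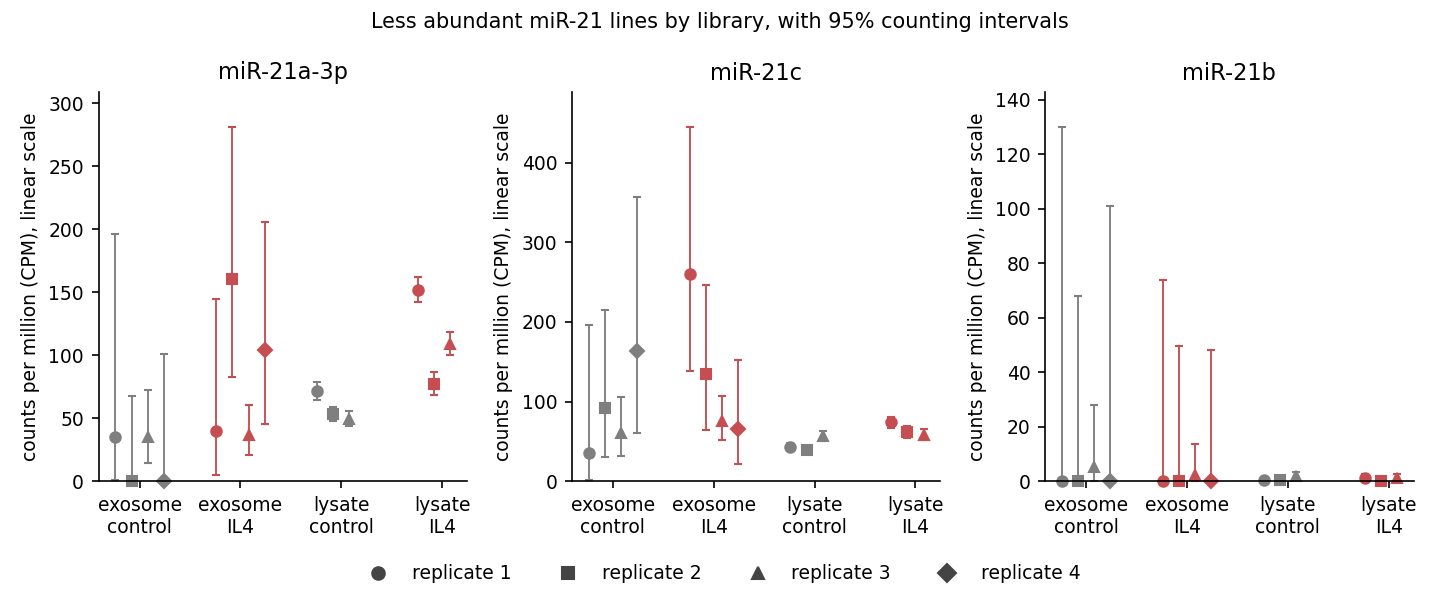
CPM (vertical axes, linear and separate for each panel) of miR-21a-3p, miR-21c and miR-21b in every library, with 95% counting intervals; grey marks control, red marks IL4, and symbols mark the replicate. The passenger strand is higher in the 3 IL4 lysates (77.1 to 152) than in the 3 control lysates (49.5 to 71.5), and intervals in exosomes are wide.

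The ratio of the hairpin's arms does not depend on scaling. In control lysates miR-21a-3p gave 0.283, 0.168 and 0.169 counts per 1000 of miR-21a-5p, and with IL4 0.468, 0.196 and 0.251. The ratio was higher with IL4 at 3 of 3 dates, but the groups overlapped and the log2 ratio differed by 0.50 (exact permutation p = 0.3; 0.4 adjusted over 4 comparisons), or by 0.14 to 0.77 with 1 library left out. limma fitted all hairpins over all 14 libraries, so the spread of exosome libraries entered its error and the result is not of lysates alone. Among libraries the log2 ratio had an SD of 1.19 and 1.05 in control and IL4 exosomes, against 0.43 and 0.65 in lysates. In that limma fit the same difference had an SE of 0.75 and an adjusted p of 0.997. limma called 0.0% of the 122 hairpins, and 1 had an unadjusted p under 0.05. The hairpins nearest to it were miR-152, miR-29c and miR-542 below (0.47, 0.46 and 0.45) and miR-1249, miR-195a and miR-1934 above (0.55, 0.65 and 0.67).

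Pooled over groups, the arm ratio was 0.108 per 1000 in control exosomes (95% CI 0.0465 to 0.212) and 0.218 with IL4 (0.154 to 0.301), next to 0.200 in control and 0.308 in IL4 lysates. Within exosome dates the log2 ratio was higher with IL4 at 2 of 4, with differences from -0.245 to 3.75 (exact permutation of signs, p = 0.5). Without a pseudocount the ratio was higher at 3 of 4. No comparison of the log2 arm ratio reached its smallest possible p: exact permutation gave 0.143 for IL4 in exosomes and 0.229 and 0.857 for exosomes against lysates in control and IL4 libraries. Without the 25 January libraries the 3 differences were 2.16, -1.38 and 0.27, beside 1.58, -0.92 and 0.16 with them. With a pseudocount of 1 in place of the 0.5 added to each arm, they were 1.07, -0.30 and 0.27. Exosome values rest on few passenger counts, so their size depends on the pseudocount. The last difference was 0.16 in limma (SE 0.67, adjusted p = 0.983), where 2.0% of 50 hairpins were called. In a further pair of limma fits, with 2.38% of 42 hairpins called for IL4 in exosomes and 5.13% of 39 for exosomes against lysates in controls, miR-21a was below the minimum count. Lysate libraries spread from 0.168 to 0.468 per 1000, a 2.78-fold range far beyond counting error.

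miR-21a stood near the end of the range of arm bias. Among 120 hairpins with at least 1000 counts of the major arm in lysates, 4 had a lower share of the minor arm than its 0.257 per 1000, and the median was 27.5. In exosomes 4 of 57 hairpins were lower than its 0.185, and the median was 7.81. A hairpin near the limit of 1000 counts exceeds these ratios with a single minor-arm count, so the rank of miR-21a depends partly on depth.

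**Figure D4:**
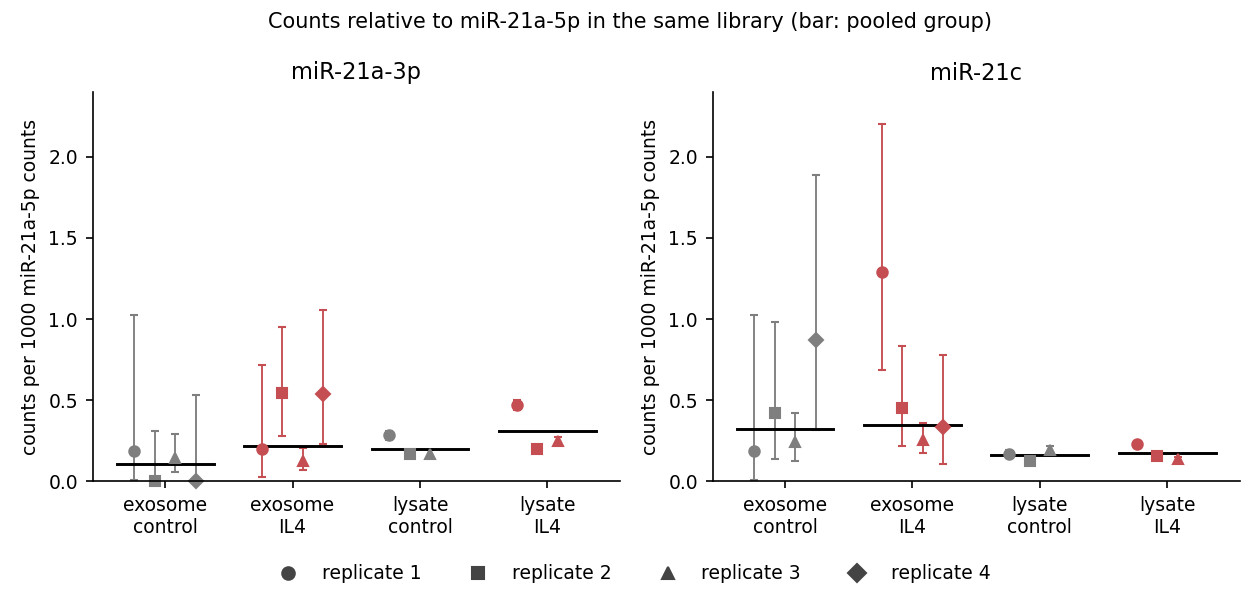
Counts of miR-21a-3p and miR-21c per 1000 counts of miR-21a-5p in the same library (vertical axes), with 95% counting intervals, control in grey and IL4 in red; symbols mark the replicate and black bars the pooled group. Pooled miR-21c lies higher in exosomes (0.323 and 0.348) than in lysates (0.159 and 0.171), while libraries overlap in the arm ratio between control and IL4 of each compartment and between compartments at each stimulation. The denominator, miR-21a-5p, was itself lower in exosomes relative to the median line.

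miR-21c carries the guide seed but was rare. Control lysates held 245, 269 and 313 counts (42.6, 39.6 and 56.8 CPM; 46.3 ± 9.18, SD, n = 3), and IL4 lysates 432, 241 and 301 (73.8, 61.1 and 58.6 CPM; 64.5 ± 8.15, n = 3). The IL4 values lay above all control values, as for 8.8% of lysate lines, but the lowest ratio within a date was 1.03. The log2 change was 0.66 (SE 0.23, 95% CI 0.14 to 1.19, edgeR adjusted p = 0.188), not called, and 0.69 with the date as a replicate block (SE 0.17, edgeR adjusted p = 0.0336), called. These estimates stand beside 0.63 and 0.61 for miR-21a-5p.

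Relative to the guide strand, miR-21c gave 0.169, 0.125 and 0.193 counts per 1000 in control lysates and 0.228, 0.155 and 0.135 with IL4. The groups overlapped and their means differed by 0.00994 per 1000 (exact permutation p = 0.8). Summing miR-21a-5p, miR-21b and miR-21c to 1 line left the lysate change at 0.63 (edgeR adjusted p = 0.222).

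Exosome counts of miR-21c were 1, 5, 12 and 6 in controls (35.2, 91.9, 60.3 and 164 CPM; 87.9 ± 55.8, n = 4). With IL4 they were 13, 10, 31 and 5 (260, 134, 75.3 and 65.2 CPM; 134 ± 89.5, n = 4). The groups overlapped widely, and the line did not pass the exosome filter. Per 1000 miR-21a-5p counts the pooled exosomes held 0.340 (95% CI 0.271 to 0.422) and the pooled lysates 0.165 (0.158 to 0.173). The denominator differed too. Measured from the median line on the TMM scale, miR-21a-5p was at -1.08 in control and -1.37 in IL4 exosomes against lysates. On that scale miR-21c was at 0.22 and 0.32, so the higher ratio is not particular to miR-21c. The same ratio was not formed for other lines. Library by library, exosomes against lysates gave exact permutation p-values of 0.114 in controls, where the groups overlapped, and 0.0571 with IL4, where they did not. Both were 0.229 after adjustment over 4 comparisons. The means differed by 0.266 and 0.410 per 1000, and without the 25 January libraries by 0.347 and 0.174, a setting chosen after seeing the data.

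On the TMM scale miR-21c differed between exosomes and lysates by 0.04 in controls (SE 0.58, edgeR adjusted p = 0.960) and by 0.30 with IL4 (SE 0.53, edgeR adjusted p = 0.668). With library totals these were 0.87 and 0.95, still not called, and without the 25 January libraries 0.14 and -0.32, so no direction held over the alternatives. The IL4 exosome library of 25 January held 13 counts where the IL4 lysate level would give 3.26. Without it the IL4 estimate was -0.19. The IL4 effects of the compartments differed by 0.26 (SE 0.78, edgeR adjusted p = 0.9999).

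miR-21b, whose seed differs from the guide seed by C4U, was near the limit of detection. Control lysates gave 2, 4 and 10 counts and IL4 lysates 7, 0 and 6, at most 1.81 CPM. The 0 in IL4 lysate replicate 2 allows up to 0.761 CPM. Exosomes gave 1 count in each of the deepest libraries, replicate 3 of both groups, and 0 in the other 6, where 0 allows between 39.1 and 105.6 CPM. At the lysate levels 0.282 counts in control exosomes and 0.534 with IL4 would occur in all, so absence from exosomes could not be seen at this depth. The line passed no filter. Per 1000 miR-21a-5p counts its groups overlapped in all 4 comparisons, with exact permutation p-values of 0.7 or above. Without a filter its IL4 change was -0.45 in exosomes (SE 1.60, edgeR adjusted p = 0.925), not called. At these counts neither test could show a difference.

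A list of 19 other miRNAs known from macrophage activation was read from the same fits. In lysates 17 could be tested, of which 5 rose and 4 fell with IL4 (edgeR, adjusted p at or under 0.05; 5.87% and 1.35% of all lines did), with a median change of 0.24 beside 0.00 for all lines. The rises were miR-146b-5p (2.76), miR-9-5p (2.45), miR-378a-3p (1.58), miR-511-3p (1.42), which is encoded in the mannose receptor gene Mrc1, and miR-125b-5p (1.30). The falls were miR-146a-5p (-2.26), a brake on NF-kB signalling, both arms of the myeloid miR-223 (-1.24 for 3p and -2.11 for 5p) and let-7e-5p (-1.32). With the date as a replicate block 5 rose and 6 fell, where 11.3% of all lines were called in either direction. The further falls were miR-125a-5p (-1.16, edgeR adjusted p = 0.00221) and miR-155-5p (-1.07, edgeR adjusted p = 0.00221). In exosomes 1 of 13 rose, miR-146b-5p at 1.65 (SE 0.27, edgeR adjusted p = 0.0296), and 0 fell, with a median of -0.08 beside -0.09. Of all 182 exosome lines 0.549% rose and 0.0% fell, and miR-146b-5p was the single line called.

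A second list held 15 miRNAs often placed with miR-21 downstream of STAT3, AP-1 or NF-kB, 6 of them also in the first list. In lysates all 15 were tested, 3 rose and 1 fell, where 5.87% and 1.35% of all lines did, and 12 had a change above 0, with a median of 0.27 beside 0.00. miR-9-5p, miR-181b-5p (0.92, SE 0.19, edgeR adjusted p = 0.0270) and miR-181a-5p (0.76, SE 0.18, edgeR adjusted p = 0.0419) rose, and miR-146a-5p fell. The inflammatory miR-155-5p was at -1.06 (SE 0.54, edgeR adjusted p = 0.463) and fell with the date as a block. This made it 3 higher and 2 lower, where 11.3% of all lines were called in either direction. Exosomes gave 0 calls in edgeR among 10 tested members, where 0.549% of all lines were called, with a median of 0.05. Compared with lysates, control exosomes held 1 of 14 higher and 6 lower, with a median of -0.95 beside -0.18, where 29.3% of all lines were higher and 21.6% lower. IL4 exosomes held 1 higher and 7 lower, with -0.80 beside -0.01, where 30.2% of all lines were higher and 19.2% lower. These lists were drawn up with results of these data known and are not independent evidence.

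Across the 14 libraries the log2 CPM patterns most like that of miR-21a-5p, among 194 lines with a mean of at least 100 CPM, were those of miR-532-5p and miR-340-5p (Pearson r = 0.95 each), miR-34a-5p (0.90), miR-28a-5p and miR-28c (0.89 each). These points share libraries, dates and depth, and the values are given as a description. miR-34a-5p followed miR-21a-5p within lysates (0.97) but not within exosomes (-0.12). After each compartment's mean was subtracted the order was miR-342-3p (0.87), miR-146b-5p (0.81), miR-340-5p (0.80), miR-532-5p (0.79) and miR-101a-3p (0.77).

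Within the family r was lower. In exosomes miR-21a-3p held 0 to 15 counts per library and miR-21c 1 to 31. Among the lines most like miR-21a-5p over the 14 libraries, mean levels ran from 152 CPM (miR-28a-5p) to 3809 CPM (miR-340-5p). The part of counting noise in the lower r was not tested. miR-21a-3p followed its partner arm with r = 0.66 over the 14 libraries and 0.44 after subtraction, and miR-21c followed miR-21a-5p with 0.16 and 0.39. The lines most like miR-21a-3p after subtraction were miR-222-5p (0.77), miR-532-3p (0.75), miR-744-5p (0.75), miR-28a-3p (0.71) and miR-324-3p (0.70), of which miR-222-5p and miR-28a-3p were alike in exosomes (0.81 and 0.78) but not in lysates (0.22 and 0.05).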

How the data were processed

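Small RNA libraries were prepared with the PerkinElmer NextFlex kit, per the labels' protocols. The authors deposited 1 table of raw counts per mature miRNA, with no normalization. The submitters' processing notes name cutadapt and mm10. The aligner, the counting program and how reads shared by near-identical miRNAs were treated are each not given in the sources used here. Columns were matched to samples by title, and 0 were left unused. edgeR 4.0.16 (filterByExpr, TMM, glmQLFit, glmQLFTest, two-sided, Benjamini-Hochberg over all lines, threshold 0.05) was run in R 4.3.3. In edgeR IL4 was tested within each compartment on its own libraries, and compartments in 1 fit of all 14. SEs and 95% intervals restate the test. Arm ratios were log2((3p + 0.5)/(5p + 0.5)) for hairpins with a mean of at least 5 counts per arm in both groups compared. They were tested with limma 3.58.1 on all 14 libraries, also for IL4 within a compartment. Exact permutation tests used scipy 1.17.1, and DESeq2 1.42.0 was an alternative. Scripts were tested on simulated data. Libraries of 1 date tended to deviate together (correlations 0.19 to 0.72 in exosomes and 0.26 to 0.61 in lysates), so the date was also fitted as a block. In replicate 2 of exosomes and of lysates, however, the IL4 library correlated more with a control library of another date. Replicates differed beyond sampling noise, with a chi-square of at least 21.0 per degree of freedom. The members and lists were chosen with earlier results of these data known. Named miRNAs are the family, the most abundant lines, list members, those most like miR-21a in pattern and hairpins nearest to it in arm change.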

Additional observations from a re-analysis of the deposited data

Results flagged for a closer look

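In 12 sets of 4 exosome values (the CPM of the 4 lines and the ratios of miR-21a-3p and miR-21c to miR-21a-5p, in each exosome group), a library standing far from the others was looked for with Dixon's criterion, which chance meets in about 1 of 20 sets. It was met in 2. miR-21b was at 5.02 CPM in control exosome replicate 3 and at 2.43 CPM in IL4 exosome replicate 3, while the other 3 libraries of each group were at 0. Each value is a single count in the deepest library of its group. With the other 3 libraries at 0, the gap equals the whole range (gap over range 1.0), whatever the size of the remaining value. The criterion could therefore not fail in these 2 sets. The rate of about 1 of 20 does not apply to such ties at 0, and no conclusion is drawn from the 2 flags.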

How the results depend on the processing

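Alternatives were other scalings (RLE factors, library totals), DESeq2, no filter on low counts, summed or left-out lines, the date as a block, 1 fit of all 14 libraries, other limits for arm ratios, and leaving out each library or the 25 January exosomes. Of 202 results under these settings other than single libraries, 176 kept their direction and side of the threshold. Calls for IL4 in exosomes (1) became 0 in edgeR with library totals (12 at an unadjusted p under 0.05), 6 with DESeq2 and 12 without a filter. Calls for IL4 in lysates (32, of which 26 higher) became 14 with library totals (8 higher), 4 in the fit of all libraries and 50 with the replicate block, which changed no other call among the IL4 results of the report than those it names. In lysates miR-21a-5p was called without a filter (0.60) and with the block (0.61), miR-21c with the block (0.69), and miR-21a-3p was not called with library totals (0.96) or in the fit of all libraries (1.07). In control exosomes against lysates, library totals ended the calls of miR-21a-5p (-0.43) and miR-21a-3p (-1.39). The miR-21c difference turned to -0.40 without a filter, and with IL4 to -0.32 without the 25 January libraries. Between the IL4 effects, miR-21a-5p turned to 0.17 without a filter and 0.0025 without the miR-203 lines, and miR-21c to -0.47 without the 25 January libraries, while calls rose from 0 to 3 without a filter. Hairpins called by limma for arm ratios, 1 for IL4 in exosomes, 2 and 1 for exosomes against lysates in controls and IL4 and 0 for the difference of IL4 effects, became 0, 5, 1 and 1 with a minimum of 20 counts. Without the 25 January libraries they were 4 in controls and 0 with IL4 for exosomes against lysates, and with a pseudocount of 1 they were 8 with IL4. The mean of miR-21c per 1000 miR-21a-5p with IL4 in exosomes turned to -0.163 without the 25 January libraries, a setting chosen after seeing the data. For these turns the cause was not tested.

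Leaving out 1 library gave 0 to 2 calls for IL4 in exosomes and 2 to 34 in lysates: 2 without control replicate 2, 7 and 10 without IL4 replicates 2 and 3, and 13 without control replicate 3. The IL4 difference in miR-21a-5p share ranged from 1.83 to 5.26 points in exosomes, and the log2 change from 0.39 to 0.62 there and from 0.39 to 0.81 in lysates. miR-21a-3p for IL4 in lysates ranged from 1.001 to 1.34, its exosome difference from -3.26 to -1.80 in controls and from -1.50 to -0.65 with IL4, and its difference of IL4 effects from 0.67 to 2.21. miR-21c ranged from -0.34 to 0.58 in control exosomes against lysates and from -0.19 to 0.73 with IL4. For the difference of IL4 effects, miR-21a-5p ranged from -0.30 to 0.20 and miR-21c from -0.28 to 0.70. The miR-21a log2 arm ratio ranged from 0.14 to 0.77 for IL4 in lysates. With IL4 in exosomes against lysates it ranged from -0.13 to 0.60, in limma and over libraries alike. The means of miR-21c per 1000 miR-21a-5p differed by -0.0816 to 0.3004 for IL4 in exosomes and by -0.0176 to 0.0288 in lysates. Hairpins called numbered 0 to 1 for IL4 in exosomes, 2 to 4 and 0 to 2 for exosomes against lysates in controls and with IL4, and 0 to 1 for the difference of IL4 effects. At the smallest exosome total, 3 counts equal 105.6 CPM, so depth limits miR-21a-3p, miR-21b and miR-21c in exosomes.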
